A study of Mus musculus with 12 samples.

Results

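Cytosolic ribosomal proteins are the protein parts of the ribosomes that translate messenger RNA in the cytoplasm. Genes were taken by symbol: a row of the count table belonged to the set if its symbol was Rps or Rpl with a number and at most 1 letter of the set a, x, y or l plus a further number, or if it was Rpsa, Rplp0, Rplp1, Rplp2 or Fau. Pseudogenes and the Rps6k kinases were dropped. This gave 85 of 24391 genes, 34 of the small (40S) subunit and 51 of the large (60S) subunit, and 7 of the 85 are paralogs with the letter l after the number (Rpl10l, Rpl22l1, Rpl39l, Rpl3l, Rpl7l1, Rps27l and Rps4l). Rpl36al, which also encodes a ribosomal protein, falls outside the symbol rule and is given separately.

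The libraries were made from CD11b dendritic cells (DCs), which take up and present antigens and are marked here by the integrin CD11b, of wild-type C57BL/6J mice aged 8 to 12 weeks. All mice, controls included, were anesthetised with xylazine and ketamine and were given a replication-deficient adenoviral vector through the trachea. The control vector AdCL had no inserted gene, and AdTGFb1 carried a porcine gene for the active form of TGF-β1, a cytokine that drives fibrosis; the series title places the work in established pulmonary fibrosis. Polyadenylated RNA was sequenced from 12 libraries, 3 of each vector in experiment 1 (AdCL DC 7, 8 and 9 against AdTGFb1 DC 14, 52 and 54) and 3 of each in experiment 3 (AdCL DC 943, 944 and 949 against AdTGFb1 DC 954, 955 and 956). The sources used here give neither the organ, nor the sorting gate, nor the time after the vector. They do not say whether libraries are from separate animals, so the p-values measure the spread between these libraries, which may be in part technical.

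Libraries held between 10099912 and 15594546 counts. All 9 markers of CD11b DCs were detected, with sums of 18323 to 35253 CPM (read counts scaled to library size) over the libraries. Of the 9, 6 were called lower in AdTGFb1 over both experiments and 1 (Sirpa) higher, with log2 fold changes of -1.97 for Cd209a, -1.63 for Zbtb46, -1.36 for Irf4 and -1.30 for Flt3, so markers of the labelled cell type fell alongside the ribosomal protein genes, and their part was not tested. By Xist and Y-chromosome transcripts AdCL DC 7, 8 and 9 and AdTGFb1 DC 14 were male and the other 8 female, so sex and vector are partly confounded in experiment 1 and experiment 3 is all female. Markers of other cells and of another DC state differed between the vectors as well. The sum of the 5 mature DC markers (Ccr7, Ccl22, Fscn1, Traf1, Cd80) ran from 2829 to 4290 CPM in AdCL and from 858 to 1391 in AdTGFb1. The 8 macrophage markers (Csf1r, Mertk, Fcgr1, C1qa, C1qb, C1qc, Apoe, Adgre1) summed to 2319 to 3173 CPM in AdCL and 6807 to 9933 in AdTGFb1 in experiment 1, and to 5610 to 7357 against 13132 to 16766 in experiment 3. The 8 endothelial markers summed to 250 to 742 CPM in AdCL against 37.7 to 72.5 in AdTGFb1 in experiment 1, and to 59.9 to 136 against 117 to 218 in experiment 3. Of these 3 lists, single libraries were at 0 for Cldn5 (AdTGFb1 DC 52 and 54) and Tie1 (AdTGFb1 DC 14) only. The 5 platelet markers summed to 48.2 to 83.0 CPM in AdCL and 16.0 to 36.4 in AdTGFb1, where Gp9 was at 0 in every library, and the T and NK, B and neutrophil lists reached at most 13.1, 10.8 and 88.9 CPM in any library. The epithelial and fibroblast lists summed to 46.3 to 365 and 82.8 to 194 CPM in AdCL and to 22.9 to 39.4 and 21.4 to 66.8 in AdTGFb1 in experiment 1, and their ranges overlapped in experiment 3. The mature DC, macrophage and platelet lists differed between the vectors in both experiments, as the ribosomal protein genes did, and their part in the results was not tested. The endothelial list lay lower in AdTGFb1 in experiment 1 alone, and a fit with it as a term is given with that experiment. In such bulk samples a smaller share of cells of a type and less RNA per cell cannot be told apart.

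A ribosome carries 1 copy of most of these proteins, which are made in parallel and assembled with ribosomal RNA in the nucleolus. Many of the messenger RNAs begin with a C followed by an unbroken run of pyrimidines, the terminal oligopyrimidine (TOP) motif, through which the kinase mTOR and the RNA-binding protein Larp1 set how fast they are translated. Other TOP messengers encode translation elongation factors and poly(A)-binding proteins. The mitochondrial ribosome is built from a separate set of proteins and served here as a comparison.

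Start-site windows show which members have a pyrimidine run near the annotated start and which do not. Of the 85 genes, 64 matched an entry by symbol in the RefSeq promoter table (GRCm38.p6; the counts were made on the older build mm9, and no count was taken by these coordinates). In each line, 40 bases before and 20 bases from the annotated start are given on the gene's strand, and capitals mark the longest unbroken run of C and T that lay near the start. The first 5 have a run of at least 8 bases, Rps15 and Rps2 do not, and the last 4 are pairs of a member and its paralog.
Fau: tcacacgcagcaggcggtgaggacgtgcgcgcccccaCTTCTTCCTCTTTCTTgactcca
Rps6: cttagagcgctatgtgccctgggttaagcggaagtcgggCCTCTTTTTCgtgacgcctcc
Rpl28: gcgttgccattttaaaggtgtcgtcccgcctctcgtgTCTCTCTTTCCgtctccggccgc
Rpl15: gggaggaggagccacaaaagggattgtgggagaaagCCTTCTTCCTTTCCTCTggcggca
Rps24: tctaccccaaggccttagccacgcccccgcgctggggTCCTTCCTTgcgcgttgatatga
Rps15: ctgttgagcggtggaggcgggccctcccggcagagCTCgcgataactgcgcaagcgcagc
Rps2: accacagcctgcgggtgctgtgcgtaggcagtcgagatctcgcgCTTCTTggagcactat
Rps27: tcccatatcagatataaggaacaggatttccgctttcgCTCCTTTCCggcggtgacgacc
Rps27l: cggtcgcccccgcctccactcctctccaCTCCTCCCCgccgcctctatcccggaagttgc
Rpl22: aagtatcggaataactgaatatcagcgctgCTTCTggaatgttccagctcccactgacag
Rpl22l1: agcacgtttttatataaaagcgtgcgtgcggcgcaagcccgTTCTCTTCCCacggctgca
The windows lie at chr19:6057907-6057966 for Fau, chr4:86857348-86857407 (minus strand) for Rps6, chr7:4792925-4792984 for Rpl28, chr14:18270967-18271026 (minus strand) for Rpl15, chr14:24490638-24490697 for Rps24, chr10:80292391-80292450 for Rps15, chr17:24720023-24720082 for Rps2, chr3:90213629-90213688 (minus strand) for Rps27, chr9:66946046-66946105 for Rps27l, chr4:152324396-152324455 for Rpl22 and chr3:28805468-28805527 for Rpl22l1. A run of at least 8 consecutive C or T bases reaching within 10 bases of the start, searched on the gene's strand only, was present in 30 of the 64 matched genes (46.9%). That share was 45.8% among 24 small and 50.0% among 34 large subunit genes other than paralogs, 33.3% among 6 paralogs, 13.2% among 68 mitochondrial ribosomal protein genes and 15.8% among all 27025 genes of the table. The stricter form, a C at the annotated start itself that opens a run of at least 5 pyrimidines, was found in 21.9% of the matched genes, 3.0% of all genes and 0 of the 68 mitochondrial ones. An annotated start can be some bases off the start that a cell uses, so a missing run says only that these letters are not in this window.

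The question put to these genes was whether their RNA levels differed between CD11b DCs of AdTGFb1 and AdCL mice, in both subunits and in both experiments. Ribosomal protein genes took a smaller share of the counts in every AdTGFb1 library than in any AdCL library. In experiment 1 they held 3.01%, 3.03% and 2.86% of all counts in AdCL DC 7, 8 and 9 and 2.57%, 2.67% and 2.44% in AdTGFb1 DC 14, 52 and 54. In experiment 3 they held 2.80%, 2.91% and 3.01% in AdCL DC 943, 944 and 949 and 2.22%, 2.37% and 1.88% in AdTGFb1 DC 954, 955 and 956. The means were 2.94% ± 0.0958 (SD, n = 6) and 2.36% ± 0.283 (SD, n = 6), and no AdTGFb1 library reached the lowest AdCL library. AdTGFb1 DC 956 was the lowest of the 12 and AdTGFb1 DC 52 the highest of its vector. These are shares of a library, so they say nothing of RNA per cell.

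**Figure D1:**
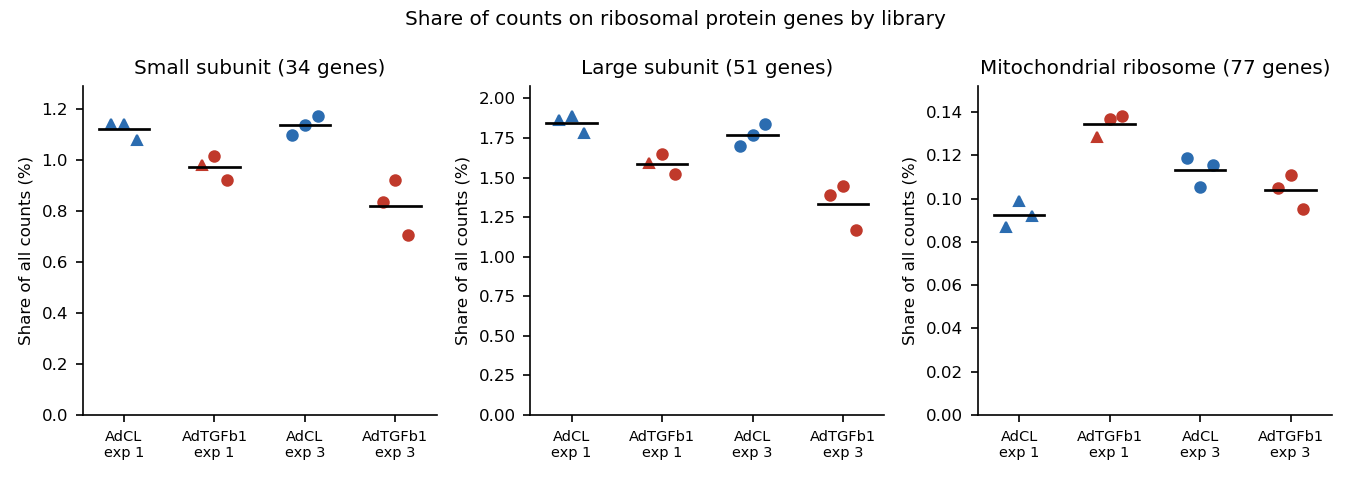
Share of all counts (%, linear axes from 0) on small subunit, large subunit and mitochondrial ribosomal protein genes, 1 symbol per library (triangles male, circles female) with a line at the mean of 3. Both cytosolic subunits sit lower in AdTGFb1 in each experiment, while the mitochondrial share is higher in AdTGFb1 in experiment 1 (0.128 to 0.138% against 0.0867 to 0.0991%) and overlaps in experiment 3.

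Both subunits showed it. The small subunit held 1.08 to 1.17% of counts in AdCL and 0.707 to 1.02% in AdTGFb1. The large subunit held 1.70 to 1.89% in AdCL and 1.17 to 1.65% in AdTGFb1. The ratio of large to small subunit counts was 1.63 to 1.66 in AdCL and 1.62 to 1.65 in AdTGFb1 in experiment 1. In experiment 3 it was 1.55 to 1.57 in AdCL and 1.57 to 1.66 in AdTGFb1, where AdTGFb1 DC 955 (1.57) lay just above the AdCL libraries and DC 954 and 956 (1.66 and 1.65) further up. The 2 experiments thus differed in this ratio in AdCL by more than the spread within either. All AdCL libraries were male in experiment 1 and female in experiment 3, so experiment and sex cannot be told apart there.

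Gene by gene, levels were compared with edgeR's quasi-likelihood F test, with p-values adjusted by Benjamini-Hochberg over 13221 genes and a gene called at an adjusted p under 0.05. Of the 85 genes, 82 passed the filter on low counts. Over both experiments, with the experiment as a term, 66 of the 82 were lower in AdTGFb1, 0 were higher and 16 were not called. Among all genes tested, 10.4% were called lower and 6.78% higher. The median log2 fold change was -0.48 over the 82 genes and -0.0019 over all genes tested. Small subunit genes other than paralogs were called lower in 27 of 32 cases (median -0.51) and large subunit ones in 38 of 45 (median -0.47), and of the 5 paralogs tested 1 was called. All 6 AdTGFb1 libraries lay below all 6 AdCL libraries for 40 of the 82 genes (48.8%), against 4.46% of all genes tested, and none lay above, against 1.86%.

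The fall was of similar size from gene to gene. Leaving out the paralogs and the 3 other tested genes whose mean was under 5 CPM, a choice made after the values were seen, 74 genes had log2 fold changes from -0.72 to -0.17, with a middle range from -0.54 to -0.42 and standard errors from 0.0933 to 0.17. Their median corresponds to a level 28.5% lower in AdTGFb1. All 74 estimates were negative, and 65 were called. The middle range was about as wide as 1 standard error.

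**Figure D2:**
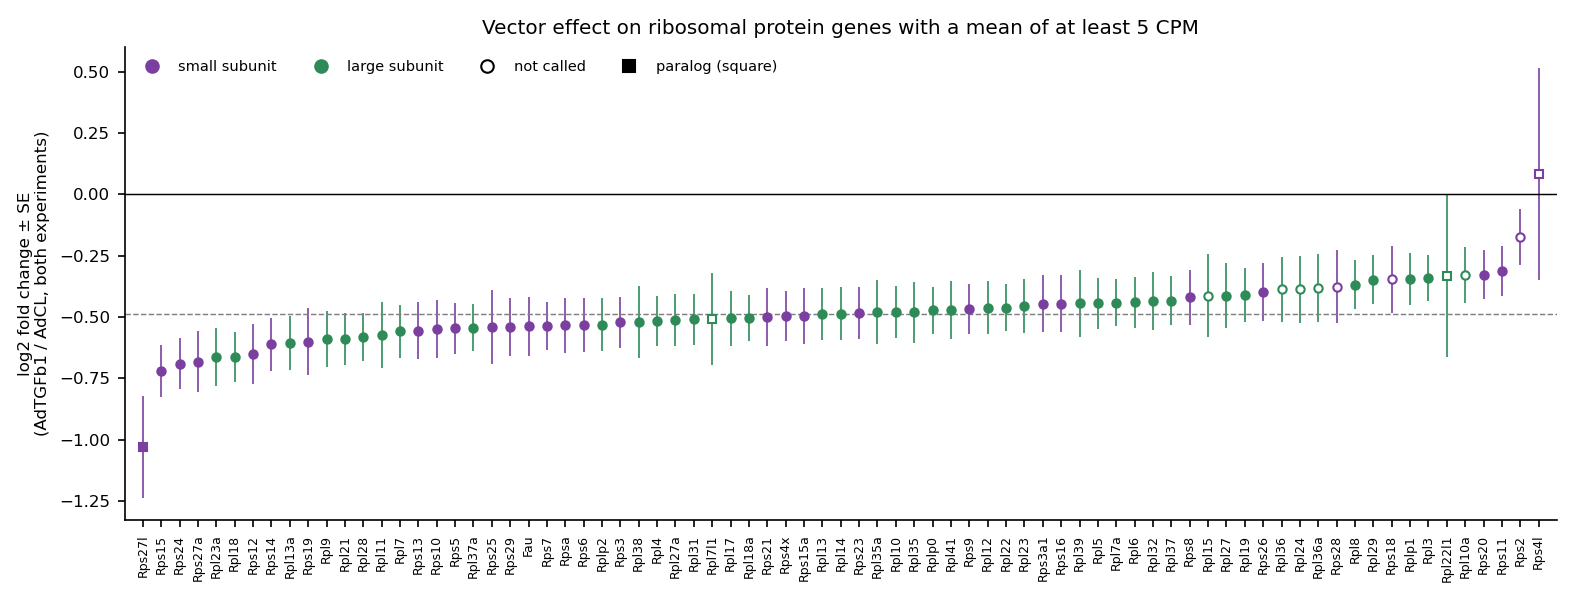
Log2 fold change of AdTGFb1 over AdCL ± SE (both experiments) for 77 of the 78 tested genes averaging 5 CPM or more, ordered by size, with small subunit genes in purple, large subunit genes in green, paralogs as squares, uncalled genes hollow, and a dashed line at the median of the genes drawn. Small and large subunit genes are interleaved between -0.72 and -0.17, with the paralog Rps27l at -1.03 and Rps4l above 0.

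Among small subunit genes, Rps15, a protein of the 40S head, had the smallest adjusted p. Its level was 533, 505 and 465 CPM in AdCL DC 7, 8 and 9 and 329, 340 and 285 in AdTGFb1 DC 14, 52 and 54. Experiment 3 gave 444, 529 and 490 CPM in AdCL DC 943, 944 and 949 and 291, 322 and 236 in AdTGFb1 DC 954, 955 and 956. Every AdTGFb1 library lay below every AdCL library, with a log2 fold change of -0.72 ± 0.106 (SE) and an edgeR adjusted p of 0.00011. In its window above, the run near the annotated start is only 3 pyrimidines long.

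Rps24, in which mutations cause Diamond-Blackfan anemia, was close behind at -0.69 ± 0.104 (edgeR adjusted p 0.000133). Its AdCL libraries ran from 442 to 602 CPM and its AdTGFb1 libraries from 309.1 to 365, with no overlap. Rps27a, made as a fusion with ubiquitin, fell from 372 ± 38.9 to 233 ± 43.6 CPM (SD, n = 6 each), a log2 change of -0.68. Of its AdTGFb1 libraries 5 of 6 lay below all AdCL libraries, and the other, DC 52 at 308.4 CPM, was level with the lowest AdCL library at 307.6. Clhc1 overlaps Rps27a on the opposite strand. Fau, made as a fusion with a ubiquitin-like protein and carrying the longest pyrimidine run of the small subunit windows shown, fell from 553 ± 52.3 to 380 ± 63.5 CPM. Rps14 had a log2 fold change of -0.61 and is 1 of the few members with no near-identical copy elsewhere in the annotation.

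Rpsa, the laminin receptor precursor and a 40S protein, stood at 894 to 1275 CPM in AdCL and 516 to 966 in AdTGFb1, with a log2 change of -0.53. Rps6, the 40S protein phosphorylated by S6 kinase, was at 396 to 537 CPM in AdCL and 214 to 407 in AdTGFb1, also -0.53. In both, 5 of 6 AdTGFb1 libraries lay below all AdCL libraries, and the exception was DC 52.

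Rps2, a protein at the entry of the mRNA channel, moved least among the 74 genes. Its libraries read 333, 385 and 416 CPM in AdCL and 292, 365 and 358 in AdTGFb1 in experiment 1, and 260, 288 and 300.6 against 233, 304.6 and 206 in experiment 3. The vectors overlapped in both experiments, and the log2 difference was -0.17 ± 0.115 (edgeR adjusted p 0.34). Exons of Snhg9 overlap Rps2 on the opposite strand and 16 other annotated genes hold near-identical stretches, so its reads are uncertain. Most other members have such copies too, among them the called Rpl21 (in 34 genes) and Rps24 (in 6).

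Among large subunit genes, Rpl18 had the smallest adjusted p (0.000183, edgeR). It read 175, 201 and 189 CPM in AdCL DC 7, 8 and 9 and 123, 141 and 117 in AdTGFb1 DC 14, 52 and 54. Its experiment 3 values were 156, 162 and 163 CPM in AdCL and 94.4, 97.2 and 93.1 in AdTGFb1. The groups were apart in both experiments, with a log2 fold change of -0.66 ± 0.103. Sphk2 overlaps it on the opposite strand. Because the strand setting of the counting is not given, reads from the stretch where the 2 genes overlap cannot be told apart.

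Rpl28, Rpl37a, Rpl21, Rpl23a and Rpl13a complete the 10 members with the smallest adjusted p, and their log2 fold changes lay between -0.66 for Rpl23a and -0.54 for Rpl37a. Rpl13a, which besides its place in the ribosome is known from a complex that silences translation in interferon-treated myeloid cells, fell from 1053 ± 151 to 692 ± 97.5 CPM. For each of Rpl28, Rpl37a, Rpl21, Rpl23a and Rpl13a, all AdTGFb1 libraries lay below all AdCL libraries. Rpl28 ran from 378 to 487 CPM in AdCL and from 231 to 321 in AdTGFb1. Ube2s overlaps Rpl28 and Tlcd1 overlaps Rpl23a on the opposite strand.

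Rplp0, Rplp1 and Rplp2 form the stalk that recruits elongation factors. Rplp0 was at 912 to 1188 CPM in AdCL and 546 to 847 in AdTGFb1 (log2 fold change -0.47). Rplp2 was at 847 to 1196 CPM in AdCL and 541 to 869 in AdTGFb1 (-0.53), overlapping only through AdTGFb1 DC 52. Rplp1 was at 779 to 838 CPM in AdCL and 498 to 762 in AdTGFb1 (-0.35 ± 0.105, edgeR adjusted p 0.0284). The Rplp1 call was lost in 11 of the other settings tried, among them counts scaled by library totals only (adjusted p 0.236).

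Rpl5 and Rpl11 bind 5S RNA and, outside the ribosome, the p53 regulator Mdm2. Rpl5 fell from 359 ± 24.7 to 265 ± 35.3 CPM (log2 -0.44) and Rpl11 from 300.9 ± 60.7 to 202 ± 21.05 (-0.57). In both, each AdTGFb1 library was below each AdCL library. Fam69a overlaps Rpl5 on the opposite strand. For Rpl11 the lowest AdCL libraries, DC 9 at 224 and DC 943 at 230 CPM, were just above the highest AdTGFb1 library, DC 52 at 223.

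Per kilobase of transcript, the highest members were Rplp2 at 2123 CPM per kb, Rplp1 at 1436, Fau at 988, Rps24 at 914 and Rpl19 at 881, averaged over the 12 libraries. The median of the 74 genes was 444 CPM per kb. At the low end stood Rpl3l at 0.45, Rpl30 at 1.58, Rpl34 at 3.15, Rps27 at 5.99 and Rpl7l1 at 42.8 CPM per kb. Over the 74 genes the fold change had Spearman correlations of 0.11 with transcript length, -0.11 with mean CPM and -0.17 with CPM per kb. These describe genes that share the same libraries.

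4 genes of the core ribosome were at or close to 0 in a way that the rest of the set was not. Rpl26 had 0 counts in all 12 libraries, Rpl30 had 0 to 30 counts, Rpl34 had 0 to 49 and Rps27 had 7 to 56. The lowest mean among the 74 genes was 60.2 CPM. For a gene with no count, 3 counts amount to between 0.181 and 0.31 CPM in these libraries, a limit that covers counting error only because PCR reads without molecular identifiers are not independent molecules. The annotation holds near-identical stretches of Rpl26 in 4 other genes, of Rpl30 in 10, of Rpl34 in 5 and of Rps27 in 2, but most other members have such copies too. How these rows came to be near 0 was not tested, and their fold changes, from -1.02 for Rpl34 to 2.12 for Rpl30 with standard errors between 0.822 and 1.39 and no call, are not read as levels of the messenger RNAs. Rpl30 was also the only member whose AdTGFb1 libraries (15 to 30 counts) all lay above its AdCL libraries (0 to 2 counts) in experiment 1, and Rps27 the only such member in experiment 3. Among all genes tested 18.8% and 11.5% were apart in that direction.

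Of all 85 genes, 74 have a stretch of at least 100 bases at 97% identity or more in another annotated gene. Among the 74 genes described above, the 6 without such a copy had a median log2 fold change of -0.51 and the 68 with one -0.48. The 29 with copies in 5 or more genes had a median of -0.49. Genes whose exons overlap another gene on the opposite strand (17 of the 74) had a median of -0.46, and the other 57 had -0.49. Members with a pyrimidine run of at least 8 bases at the start had a median of -0.51 (26 genes, 24 called), and those with a known start and a shorter run -0.47 (29 genes, 24 called). Each of these groups lay close to the median of all 74.

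The paralogs were more spread out. Rps27l, a relative of Rps27 that p53 is known to induce, was the gene with the largest called fall of the set. It read 58.7, 53.8 and 55.4 CPM in AdCL DC 7, 8 and 9 and 31.4, 37.4 and 27.3 in AdTGFb1 DC 14, 52 and 54. Experiment 3 gave 63.0, 64.0 and 84.6 CPM in AdCL and 25.1, 47.0 and 16.5 in AdTGFb1. The vectors were apart in both, with a log2 fold change of -1.03 ± 0.21 (edgeR adjusted p 0.00212). It has no near-identical copy and no overlap in the annotation.

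Rpl7l1, a nucleolar relative of Rpl7, was lower in AdTGFb1 in experiment 1, at 76.5, 82.5 and 68.4 CPM against 36.1, 40.6 and 49.3 (log2 -0.85 ± 0.231, edgeR adjusted p 0.00935). In experiment 3 it read 44.4, 81.2 and 43.4 CPM in AdCL and 43.9, 58.3 and 48.5 in AdTGFb1, so the groups overlapped, and the log2 difference was -0.17 ± 0.23. The test of the difference between the experiments gave an unadjusted p of 0.0468 and an adjusted p of 0.236 (edgeR), so it did not pass.

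Rpl22l1 read 33.1, 33.2 and 29.7 CPM in AdCL and 25.1, 19.0 and 13.3 in AdTGFb1 in experiment 1. Its experiment 3 values were 32.7, 15.2 and 22.6 CPM in AdCL and 47.9, 17.3 and 8.93 in AdTGFb1, where DC 954 was the highest of all libraries and DC 956 the lowest. Its log2 difference over both experiments was -0.33 ± 0.33 (edgeR adjusted p 0.555), and Gm33051 overlaps it on the opposite strand. Rpl22, the member it is related to, fell from 451 ± 42.9 to 327 ± 22.7 CPM (-0.46), with no overlap between vectors. Rps4l lay between 2.35 and 16.4 CPM with overlapping groups. Rpl3l, the muscle form of Rpl3, and Rpl39l, known from testis, were near 0, Rpl39l with 1.12 CPM in AdCL DC 9 and 0.384 in AdCL DC 943 alone, and Rpl10l had no count.

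**Figure D3:**
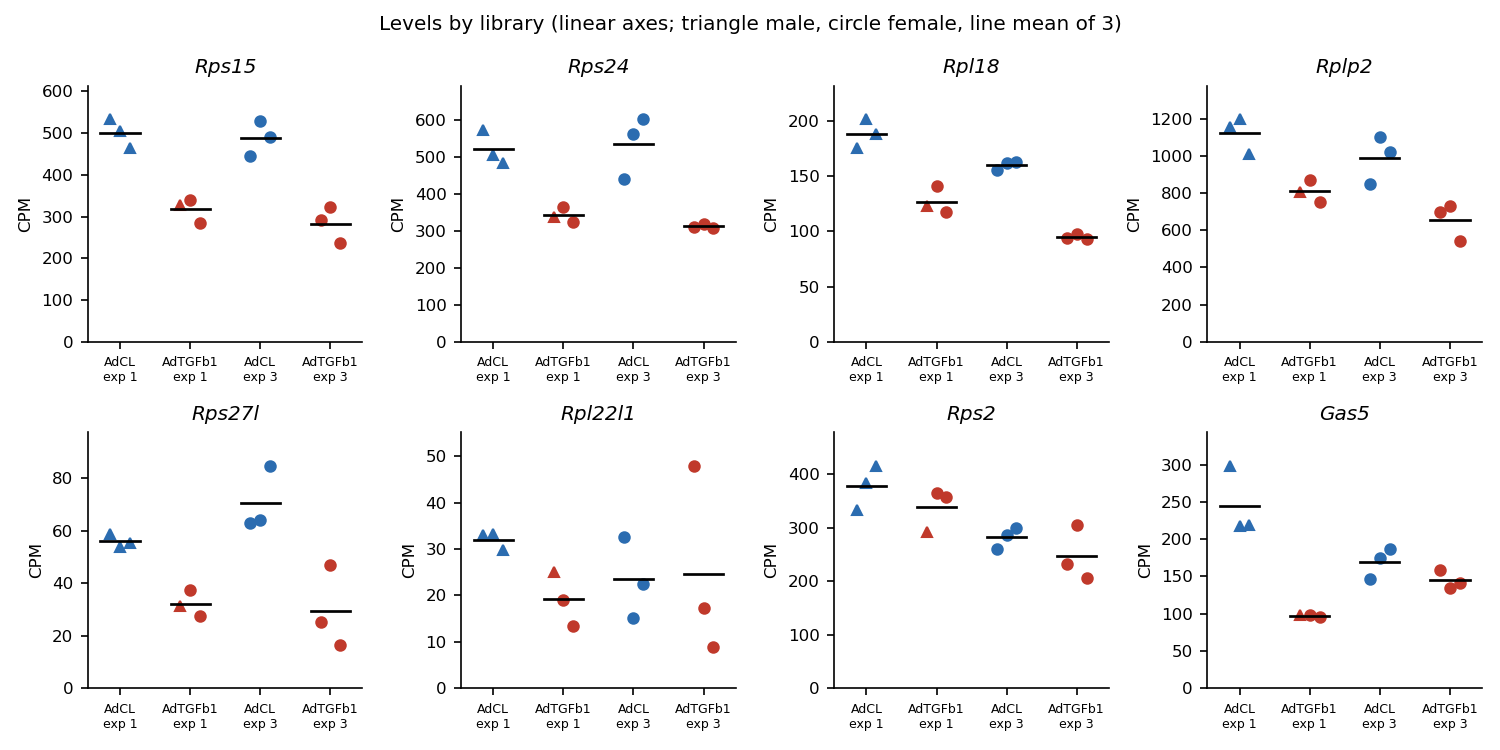
Level in CPM (linear axes from 0) of 7 ribosomal protein genes and of Gas5 in the 12 libraries, triangles for male and circles for female libraries, with a line at the mean of 3. Rps15, Rps24, Rpl18 and Rps27l show no overlap between vectors, Rplp2 overlaps through 1 library, Rps2 overlaps in both experiments and Rpl22l1 in experiment 3.

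The X chromosome carries Rpl10, Rps4x, Rpl36a and Rpl39, which are listed here because the sexes were mixed in experiment 1. Rps4x was at 468 to 566 CPM in AdCL and 281 to 394 in AdTGFb1, and Rpl10 at 416 to 531 against 274 to 374, both without overlap. Rpl39 had a log2 fold change of -0.44 and was called, and Rpl36a one of -0.38 and was not (edgeR adjusted p 0.0683). The median of the 4 over both experiments was -0.46, next to -0.48 for the 82 genes. In experiment 1 itself their median was -0.42, next to -0.45 for the 82, with Rpl10 (-0.55) and Rps4x (-0.47) called lower and Rpl39 (-0.36) and Rpl36a (-0.093) not called. These medians cannot tell what part sex had, because a sex difference need not be confined to X-linked genes.

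Within experiment 1, 46 of the 82 genes were lower in AdTGFb1 and 0 higher, 19 of the small and 25 of the large subunit and 2 paralogs. Among all genes tested 14.1% were lower and 10.6% higher. The medians were -0.45 for small and -0.42 for large subunit genes, against -0.026 for all genes tested. Groups did not overlap, with AdTGFb1 below, for 63 of 82 (76.8%), against 21.6% of all genes. DESeq2 called 54 lower and 1 higher, Rpl30, whose AdCL libraries hold at most 2 counts. The count depended on single libraries and on the model: it was 16 without AdCL DC 7, 25 without AdCL DC 8, 21 without AdTGFb1 DC 54, 8 with library totals as the only scaling and 4 with a term for sex. With the endothelial markers as a term (the mean of their log2 CPM, each centred on its own mean) it was 0. That fit called 0 of the 13139 other genes in experiment 1 as well. For DESeq2 and the other settings the share of all genes called is not given. Their counts are therefore not read as particular to the ribosomal protein genes.

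Within experiment 3, where every library was female, 47 of the 82 genes were lower and 0 higher, 21 of the small and 25 of the large subunit and 1 paralog. Of all genes tested, 4.46% were lower and 1.97% higher in that experiment. The medians were -0.59 for small and -0.53 for large subunit genes, against 0.0029 for all genes tested. Groups did not overlap, with AdTGFb1 below, for 69 of 82 (84.1%), against 12.9% of all genes. The count was 30 with the 6 libraries of that experiment fitted alone, 22 without AdCL DC 944, 24 without AdCL DC 949, 28 without AdTGFb1 DC 954 and 11 without AdTGFb1 DC 956, the library with the lowest share. Here too the share of all genes called in these fits is not given, so the drops are not read as particular to these genes.

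In 33 genes the call was made in both experiments, which is 71.7% of the calls of experiment 1 and 70.2% of those of experiment 3. Of all genes tested 3.09% were lower in both, which is 21.9% of the lower calls of experiment 1 and 69.4% of those of experiment 3. Another 13 were called in experiment 1 alone, 14 in experiment 3 alone and 22 in neither. For 58 genes the AdTGFb1 libraries lay below the AdCL libraries in each experiment, against 6.61% of all genes tested. The 2 sets of fold changes come from different libraries, and over the 74 genes their Spearman correlation was 0.12, a description of genes that share libraries within each experiment.

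**Figure D4:**
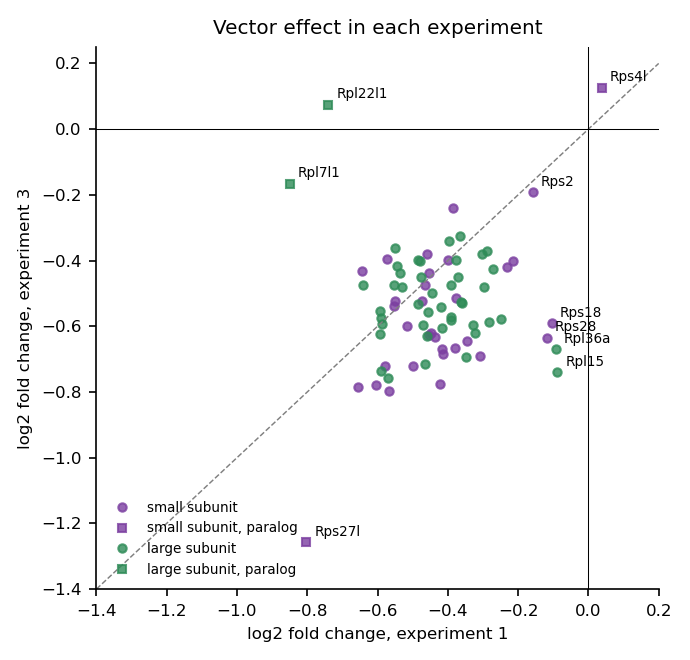
Log2 fold change of AdTGFb1 over AdCL in experiment 1 (horizontal) and experiment 3 (vertical) for the 78 tested genes averaging 5 CPM or more, squares for paralogs, with a dashed line of equality. The 74 genes that are not paralogs form 1 cloud below 0 in both, with medians of -0.44 and -0.55, and the paralogs Rpl22l1, Rpl7l1, Rps27l and Rps4l lie outside it.

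Whether the effect differed between experiments was tested directly as an interaction. None of the 82 genes was called by edgeR or by DESeq2, against 2.59% called lower and 3.43% higher by edgeR among all genes tested. At an unadjusted p under 0.05 (edgeR) there were 4 of the 82. The share of all genes at that looser threshold is not given, so the 4 are described only and not read as a result. The 4 were Rpl36a, Rpl15, Rpl7l1 and Rps18. Rpl36a read 164, 137 and 126 CPM in AdCL and 122, 147 and 131 in AdTGFb1 in experiment 1, which overlap. In experiment 3 it read 137, 148 and 158 against 114, 87.9 and 76.2, which do not, and was called there (-0.67 ± 0.167). Its interaction had an unadjusted p of 0.0227 and an adjusted p of 0.157 (edgeR).

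Rpl15, at a lower level, also overlapped between vectors in experiment 1 and not in experiment 3. It read 72.3, 67.0 and 70.3 CPM in AdCL and 69.4, 67.6 and 60.1 in AdTGFb1 in experiment 1, and 94.4, 78.8 and 71.1 against 57.4, 57.5 and 31.6 in experiment 3. Its log2 fold change was -0.089 in experiment 1 and -0.74 in experiment 3, with an interaction at an adjusted p of 0.212 (edgeR). Rps18 and Rps28 were likewise called in experiment 3 only, at -0.59 and -0.63, while their estimates in experiment 1 were -0.10 and -0.12. Neither had an interaction called, with edgeR adjusted p of 0.241 and 0.262. Rpl15, Rps18 and Rps28 all overlap a gene on the opposite strand (Nkiras1, Vps52 and Kank3).

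The experiments themselves were compared as well. Experiment 3 against experiment 1, with the vector as a term, gave 3 lower and 0 higher of 82, with 2.86% of all genes called lower and 3.57% higher, a share of calls near the background. Of the 82 estimates 76 were negative, with a median of -0.15 against 0.0088 for all genes tested. The 3 were Rps2 (-0.44 ± 0.115), Rps6 (-0.38 ± 0.109) and Rpl12 (-0.37 ± 0.108), with edgeR adjusted p of 0.0287, 0.0424 and 0.0498. The count went to 0 with a term for sex, or without any 1 of AdCL DC 8 or 9 or AdTGFb1 DC 52, 54, 954 or 956, and DESeq2 called 12.

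Other members not called over both experiments were close to the threshold. Rpl10a, Rpl36, Rpl24 and Rpl36a had edgeR adjusted p between 0.0528 and 0.0683, with log2 fold changes from -0.39 to -0.33. DESeq2 called Rpl36, Rpl24 and Rpl36a lower. With library totals as the only scaling, 40 genes were called over both experiments, the medians were -0.34 for the small and -0.31 for the large subunit, and the median of all other genes moved up to 0.17. In that scaling, too, 0 genes of the set were called higher.

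Genes of the mitochondrial ribosome had other counts in the same fits. Of 77 mitochondrial ribosomal protein genes, all tested, 1 was higher and 0 lower over both experiments, against 6.78% of all genes called higher and 10.4% lower. Their median log2 fold change was 0.077, and DESeq2 called 3 higher and 0 lower. Together the 77 held a mean of 0.111% of counts over the 12 libraries, against 2.65% for the 85 cytosolic genes. What part this lower level had in the number of calls was not tested. Mrps21 was the 1 called by edgeR, from 9.81 ± 2.80 to 18.9 ± 6.08 CPM (SD, n = 6 each, log2 0.95). In experiment 1, 6 of the 77 were higher (Mrpl10, Mrpl15, Mrpl18, Mrpl42, Mrpl48 and Mrps21), 0 lower, and the median was 0.29, where 10.6% of all genes were called higher and 14.1% lower. In experiment 3, 1 was lower (Mrpl33), 0 higher, and the median was -0.20, where 4.46% of all genes were called lower and 1.97% higher. The interaction was called for 2 of the 77, Mrpl33 (-2.23 ± 0.537) and Mrpl48 (-1.91 ± 0.516), both negative. That share is near the 2.59% of all genes with a negative interaction called, and 3.43% had a positive one. Mrpl33 and Mrpl48 had means between 13.7 and 23.7 CPM in the 2 vectors, well under the cytosolic genes. Mrps7 (log2 -0.54, edgeR adjusted p 0.0886) did not pass.

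**Figure D5:**
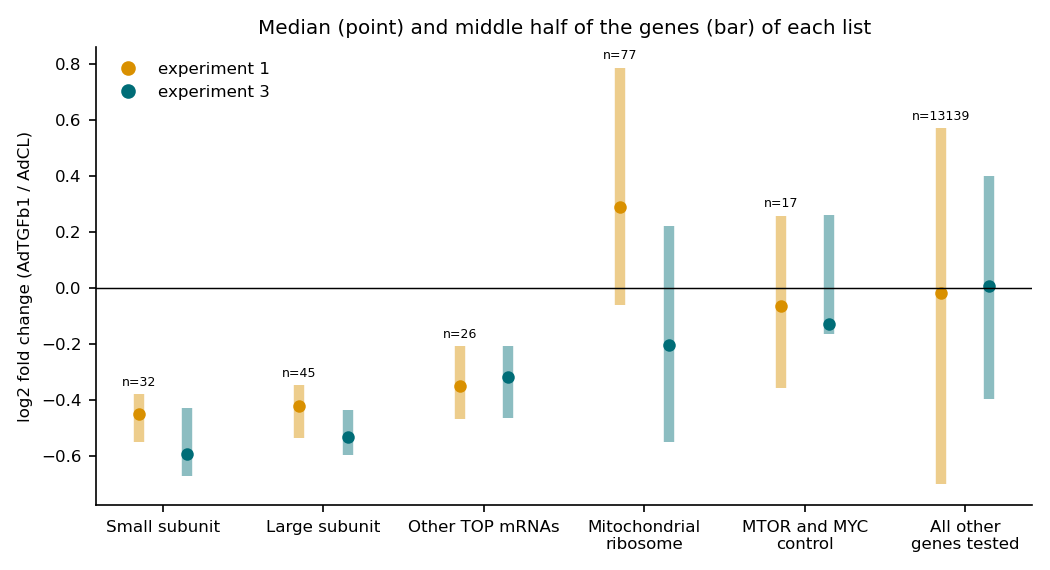
Median log2 fold change (point) and middle range from the 25th to the 75th percentile (bar) of AdTGFb1 over AdCL in experiments 1 and 3 for each gene list, with the number of genes tested. Small and large subunit genes and the other TOP messengers have medians from -0.59 to -0.32 in both experiments, whereas the mitochondrial median is 0.29 in experiment 1 and -0.20 in experiment 3.

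Other messengers known to carry the TOP motif were mostly lower. Of 26, 14 were lower and 0 higher over both experiments, with a median of -0.35, and all 26 estimates were negative. In experiment 1, 10 were lower and in experiment 3, 5. Of all genes tested, 10.4% were called lower over both experiments, 14.1% in experiment 1 and 4.46% in experiment 3. Rpl36al, a 60S protein related to Rpl36a, fell from 79.8 ± 13.1 to 52.3 ± 12.5 CPM (-0.63). Tpt1, a small growth-related protein, fell from 1812 ± 276 to 1257 ± 151 CPM (-0.52). Its AdCL libraries ran from 1488 to 2092 and its AdTGFb1 libraries from 987 to 1407, with no overlap. Btf3 and Naca, which together bind nascent chains at the ribosome, fell by 0.67 and 0.45 on the log2 scale, and Pabpc4, a poly(A)-binding protein, by 0.94.

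The elongation factor Eef1a1 fell by 0.36 on the log2 scale. Eef2, the translocation factor, had a log2 difference of -0.21 (edgeR adjusted p 0.131) and Npm1, the nucleolar chaperone, one of -0.26 (0.0929), neither called. Snhg1 and Gas5 are noncoding TOP transcripts that host small nucleolar RNAs. Snhg1 read 34.1 to 71.0 CPM in AdCL and 22.7 to 33.2 in AdTGFb1 (-0.98 ± 0.175, edgeR adjusted p 0.000703). Gas5 fell in experiment 1 alone, where it was at 217 to 298.4 CPM in AdCL and 95.6 to 98.7 in AdTGFb1. It was the only gene of this list of 26 with an interaction called by edgeR (DESeq2 called 2). The edgeR share is near the 3.43% of all genes with a positive interaction called, and 2.59% had a negative one.

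Regulators of growth were counted in the same way. Of 17 tested genes of MTOR and MYC control, 2 were lower over both experiments and 0 higher, a share near the 10.4% of all genes called lower, and the median was -0.095. Eif4e, the cap-binding factor whose release mTOR controls, read 110 to 141 CPM in AdCL and 65.0 to 80.1 in AdTGFb1, without overlap (-0.81 ± 0.116). Mxd1, an antagonist of Myc, had a log2 fold change of -0.38. Myc itself was not called over both experiments (-0.38 ± 0.152, edgeR adjusted p 0.0994) but was lower in experiment 1 (-0.60 ± 0.201, 0.0319), with -0.15 ± 0.199 in experiment 3, and the difference was not called. Max was at 0.49 ± 0.176 (0.0652), and Mtor (-0.11) and Larp1 (-0.009) had estimates within about 1 standard error of 0. Of 8 chaperones dedicated to ribosomal proteins, 1 was lower and 0 higher, a share near the 10.4% of all genes called lower. It was Ltv1, a 40S assembly factor, which fell from 77.7 ± 20.6 to 49.2 ± 6.65 CPM (-0.66). Of 9 genes of ribosome rescue and quality control, edgeR called 0 over both experiments, against 10.4% of all genes called lower and 6.78% higher. Only Hbs1l had an unadjusted p under 0.05 (edgeR adjusted p 0.0638). DESeq2 called 1 of the 9, lower, and its share over all genes is not given here.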

How the data were processed

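The authors deposited unnormalised read counts, as 1 table of 24391 gene symbols by 12 libraries, and the unit was checked on the values. The submitters' processing notes name Trim Galore 0.4.1, cutadapt 1.9.1, STAR 2.5.0c, HTSeq, DESeq2 and the build mm9, with no role for any of them. Per the labels' protocols, polyadenylated RNA was made into directional libraries. Which annotation the reads were counted on, and with which strand setting, is not given in the sources.

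From these counts, edgeR 4.0.16 in R 4.3.3 was run with TMM scaling, a low-count filter (filterByExpr, 13221 genes left) and two-sided quasi-likelihood F tests. The vector was tested over both experiments with the experiment as a term, and within each experiment, with the interaction, in a model of 4 groups. The SE restates the test (effect over the root of F). CPM use TMM-scaled totals. DESeq2 1.42.0, other scalings, other terms and leaving out each library were the alternatives. Scripts were tested on simulated data. The GENCODE M21 annotation, of another build than the counts, gave lengths (shortest consensus coding transcript), exon overlaps and copies (at least 100 bases at 97% identity).

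The gene set, the other lists and the tests were chosen with earlier results of these data known, so no list is independent support. Genes are named by a rule: the 10 smallest adjusted p, the 5 smallest interaction p, uncalled members, the 5 highest and 5 lowest per kilobase, members fixed by role, the paralogs, and up to 4 genes per other list. Others named (Rpl10a, Rpl12, Rpl22, Btf3, Naca, Eef1a1, Eef2, Npm1, Mtor, Larp1, Mrpl10, Mrpl15, Mrpl33 and Mrpl48) were chosen after their values were seen. Results of 2 genes that the rule names are not reported here.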

Additional observations from a re-analysis of the deposited data

Results flagged for a closer look

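Gas5, a noncoding host of small nucleolar RNAs with a TOP start, differed in its response between the experiments by the test of the difference itself, with an interaction of 1.11 ± 0.219 on the log2 scale (edgeR adjusted p 0.0034). Among all genes tested, 3.43% had a positive and 2.59% a negative interaction called. In experiment 1 it read 298.4, 217 and 219 CPM in AdCL DC 7, 8 and 9 and 98.4, 98.7 and 95.6 in AdTGFb1 DC 14, 52 and 54, a log2 fold change of -1.33. In experiment 3 it read 146, 174 and 187 CPM in AdCL and 159, 135 and 142 in AdTGFb1, which overlap, with a log2 difference of -0.22 (edgeR adjusted p 0.502). The mix of sexes and the endothelial marker levels differed between the experiments too, and their part in this was not tested. Groups of 3 libraries were not searched for single outlying libraries.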

How the results depend on the processing

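Lower levels over both experiments were called in 57 to 71 members, and 0 higher, under every setting with all libraries except library totals only (40), and in 52 to 69 with 1 library left out. With totals only, the small and large subunit medians were -0.34 and -0.31 over both experiments, -0.21 and -0.18 in experiment 1 and -0.31 and -0.25 for the interaction, while the median of all other genes moved to 0.17, 0.22 and -0.12. Calls in experiment 1 were 8 with totals only, 4 with a term for sex, 0 with a term for endothelial markers (medians -0.20 and -0.24, and -0.54 and -0.34 for the interaction), and 16 to 49 with 1 library left out. Calls in experiment 3 were 30 with its 6 libraries alone and 11 to 52 with 1 library left out, where the small subunit median ran from -0.73 to -0.46. The interaction had 0 to 1 member called with 1 library left out. Experiment 3 against 1 had 1 call with totals only, 12 by DESeq2, 0 with a term for sex, 10 with a term for endothelial markers and 0 to 2 with 1 library left out. Shares of all genes called under each setting are not given beside these counts, so the shifts are not read as particular to the members. The cause of these shifts was not tested.

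Among the 38 members followed singly under these settings, the uncalled Rps27 and Rps4l turned sign. Rps27 went to -0.056 with no term for the experiment and to -0.22, -0.18 and -0.19 without AdCL DC 943, AdCL DC 944 or AdTGFb1 DC 954 (range with 1 library left out, -0.22 to 0.45). Rps4l went to -0.059, -0.0019 and -0.039 without AdCL DC 8, AdCL DC 944 or AdTGFb1 DC 955 (range -0.059 to 0.49). No paired analysis was possible because no DC number is shared between groups. How the calls depend on depth was not tested; the lowest total was 10099912 counts.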
